A study of Mus musculus with 18 samples.

Results

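The 10 genes described here carry, take up, store, export or sense iron: Trf, Tfrc, Tfr2, Ireb2, Aco1, Fth1, Ftl1, Hamp, Slc40a1 and Hfe. They were chosen by gene symbol, because Trf, Tfrc and Ireb2 had differed from PBS in earlier results of the same libraries, and the other 7 were added as genes of the same system. All 10 were found among 37991 counted genes, and all 10 are among the 11153 genes kept by a filter on low counts. Total RNA was sequenced in 18 libraries from mouse hepatocytes, cryopreserved and able to be plated, of male animals of the outbred CD-1 stock. The cells received 1 of 6 treatments, with 3 libraries each: the siRNA that targets transthyretin (Ttr), REVERSIR of scrambled sequence, the TTR REVERSIR, siRNA and scrambled REVERSIR together, siRNA and TTR REVERSIR together, or PBS. REVERSIR molecules are short synthetic oligonucleotides made to pair with the guide strand of an siRNA and to end its silencing. The labels give no dose, time or age, and do not say whether replicates were separate cultures or how many animals gave the cells, so every p-value measures only the spread between these libraries.

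Hepatocytes make most plasma transferrin and hold much of the body's iron in ferritin. Inside cells, iron regulatory proteins bind hairpins in messenger RNA, called iron-responsive elements, when iron is scarce: binding near the start of a message blocks its translation, as in ferritin, and binding in the 3' untranslated region of the transferrin receptor protects it from decay. Hepatocytes also secrete hepcidin, which removes the iron exporter ferroportin from cell surfaces, and they set hepcidin output through receptors that read transferrin iron.

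The hairpins themselves are shown because they mark which of the 10 messages the iron regulatory proteins are known to bind. Transcripts of the mouse build NCBIM37 were searched, on the transcript strand only, for the letters CNNNNNCAGTGN with 5 of 5 upper stem pairs and at least 4 of 5 lower pairs (G with T counted as a pair), in a window of 27 bases. The capitals mark the bulged C and the 6 loop bases.
Fth1, 5' UTR: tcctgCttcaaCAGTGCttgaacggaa
Ftl1, 5' UTR: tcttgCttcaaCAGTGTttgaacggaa
Slc40a1, 5' UTR: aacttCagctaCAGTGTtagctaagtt
Tfrc, 3' UTR, site 1: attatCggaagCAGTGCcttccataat
Tfrc, 3' UTR, site 2: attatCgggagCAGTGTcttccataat
Tfrc, 3' UTR, site 3: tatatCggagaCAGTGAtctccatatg
Tfrc, 3' UTR, site 4: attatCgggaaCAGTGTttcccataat
The Fth1 element lies at chr19:10057223-10057249 on the plus strand, the Ftl1 element at chr7:52715150-52715176 on the minus strand, and the Slc40a1 element at chr1:45982311-45982337 on the minus strand. The 4 Tfrc elements lie on the plus strand at chr16:32631306-32631332, chr16:32631685-32631711, chr16:32631750-32631776 and chr16:32631797-32631823. The letters alone occur in 10.1% of 19945 annotated 5' UTRs and 33.6% of 20007 3' UTRs (1 set of transcripts per gene), whereas letters with the stem occur in 7 genes (0.0351%) and 10 genes (0.05%). The Tfrc 3' UTR holds the letters 5 times, and the 4 sites shown are those with the stem. The 3' UTRs of Ireb2 and Fth1 hold the letters without the stem, and no window with both was found in the other 6 members. These matches describe sequence and are not evidence of binding in these cells.

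Library totals ranged from 1755819 to 10145265 counts. Levels are in CPM, counts scaled to a library total that TMM scaling corrects for a few dominant genes. Ttr, the siRNA target, had 220.5 to 254 CPM in the 6 libraries with the siRNA alone or with the scrambled REVERSIR. It had 978 to 1357 CPM in the other treated libraries and 1034 to 1220 CPM in PBS libraries, as labelled. PBS replicates 1 and 2 stood apart: mitochondrial ribosomal RNA took 24.3% and 24.1% of their counts, against 1.69% to 9.56% in the treated libraries and 5.45% in PBS replicate 3. Summed hepatocyte markers were 45944 to 54955 CPM in treated and 50828 to 60998 CPM in PBS libraries. Summed Kupffer cell and macrophage markers, of which 5 of 13 passed the filter, were 283 to 363 CPM in treated and 316 to 389 CPM in PBS libraries, and 6 of 10 erythroid markers had 0 counts throughout. Cholangiocyte markers, with 4 of 8 kept, were 12.8 to 19.6 CPM in treated and 20.3 to 22.4 CPM in PBS libraries, those of stellate cells and fibroblasts, with 5 of 10 kept, were 120.4 to 162 CPM in treated and 147 to 151 CPM in PBS libraries, and those of liver endothelium, with 6 of 10 kept, were 50.9 to 75.3 CPM in treated and 56.5 to 64.7 CPM in PBS libraries. All libraries with siRNA (120.4 to 130.1 CPM) and with siRNA and TTR REVERSIR (128 to 136 CPM) were below PBS in the stellate sum. The part of other cells in the results below was not tested. In bulk RNA, fewer cells of a type and less RNA per cell cannot be told apart.

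Per kilobase of exon, the ferritin chains were the most abundant of the 10. The median level over the 18 libraries was 1753 CPM per kilobase for Fth1, 1292 for Ftl1, 247 for Trf and 137 for Hamp. It was 38.9 for Aco1, 33.1 for Tfr2, 33.0 for Slc40a1, 20.9 for Tfrc, 14.6 for Ireb2 and 4.92 for Hfe. Over the 18 libraries the ranges of neighbours in this order overlapped for Fth1 and Ftl1 (1499 to 2331 and 724 to 1534 CPM per kilobase), Aco1 and Tfr2, Tfr2 and Slc40a1, Slc40a1 and Tfrc, and Tfrc and Ireb2, and did not overlap for the others. Within a library, Fth1 per kilobase was 0.977 to 1.63 times Ftl1 in treated libraries and 3.18, 2.84 and 1.49 times Ftl1 in PBS replicates 1, 2 and 3, and was below it in TTR REVERSIR replicate 1 alone. All CPM values, those above included, are after TMM scaling. The TMM factor was 0.747 and 0.758 in PBS replicates 1 and 2, 1.03 in PBS replicate 3 and 0.986 to 1.07 in treated libraries. A smaller factor gives a higher CPM.

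**Figure D1:**
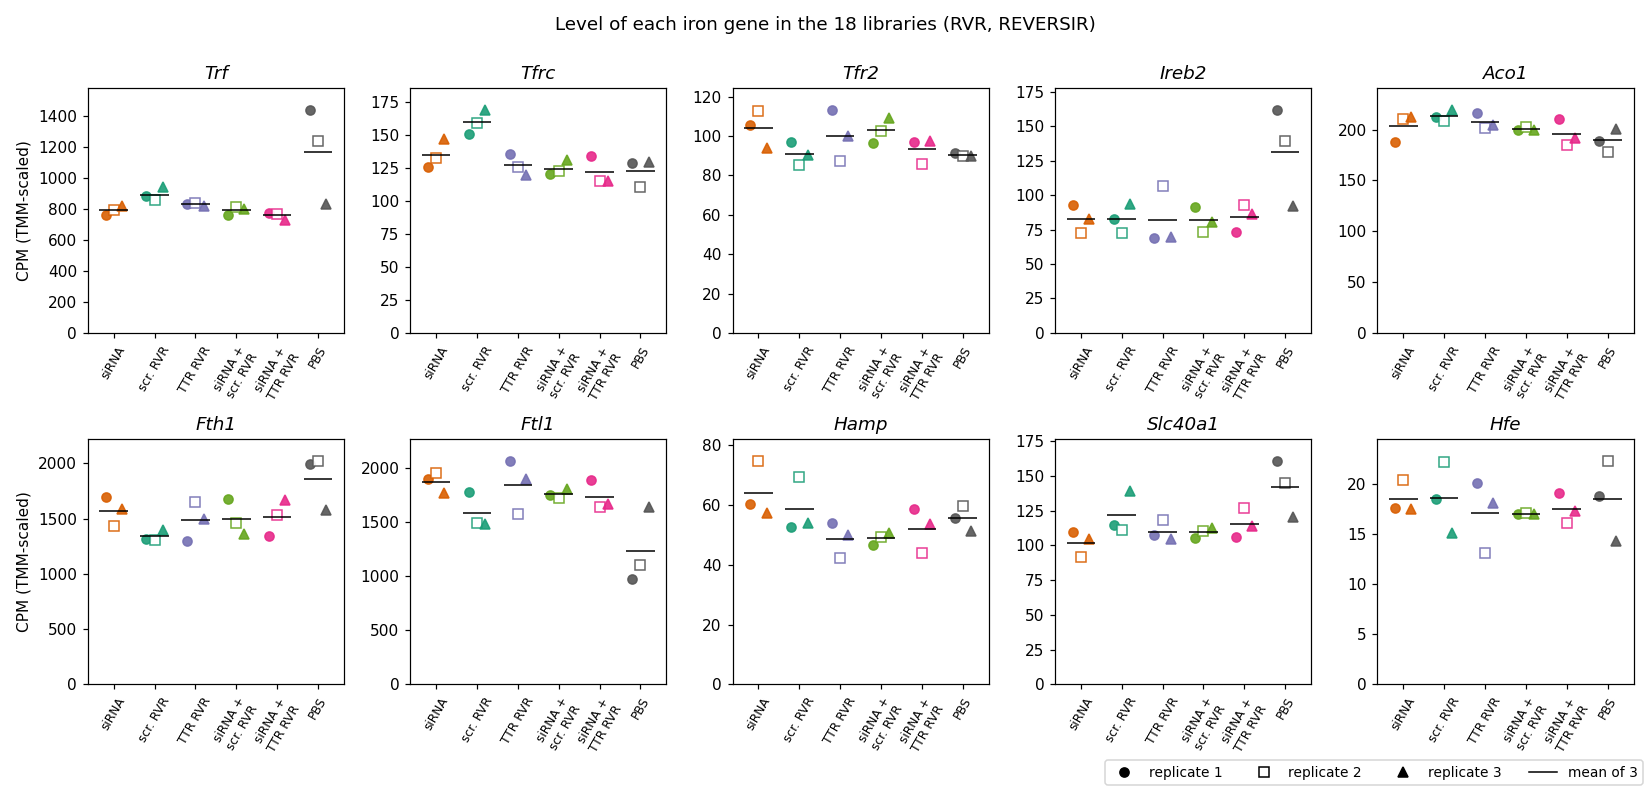
CPM of each of the 10 genes in the 18 libraries, 1 panel per gene, with the 5 treatments on the left of each panel and PBS on the right (RVR, REVERSIR; scr., scrambled). Points are libraries, marked by replicate, horizontal lines are means of 3, and every axis starts at 0. PBS replicates 1 and 2 are the 2 highest points for Trf, Ireb2, Fth1 and Slc40a1 and the 2 lowest for Ftl1, while PBS replicate 3 sits among the treated libraries.

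Trf encodes transferrin, the plasma protein that carries iron to cells (ENSMUSG00000032554, chr9:103106331-103132774, minus strand). Its CPM was 757, 793 and 817 with siRNA, 881, 853 and 938 with scrambled REVERSIR, and 833, 836 and 821 with TTR REVERSIR. It was 759.9, 813 and 799 with siRNA and scrambled REVERSIR, 776, 766 and 728 with siRNA and TTR REVERSIR, and 1436, 1233 and 830.2 with PBS. The 15 treated libraries lay within a narrow band that also held PBS replicate 3, and PBS replicates 1 and 2 alone were outside it. Within that band the 3 scrambled REVERSIR libraries were the highest, and they were also shallow, at 1755819 to 2896366 counts. The next highest treated library, TTR REVERSIR replicate 2, had 2217585 counts, and the part of depth in these levels was not tested. The log2 fold change over PBS ran from −0.63 to −0.39 in the 5 comparisons, or −0.27 to −0.07 on library totals alone. With PBS replicate 3 as the only control it was −0.13 to 0.10. A second annotated gene named Trf overlaps its exons and had 0 counts.

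Tfrc encodes the transferrin receptor that brings transferrin iron into cells (ENSMUSG00000022797, chr16:32609006-32632880, plus strand). Its CPM was 125, 132 and 147 with siRNA, 151, 159 and 169 with scrambled REVERSIR, and 135, 126 and 119.7 with TTR REVERSIR. It was 120.2, 122 and 131 with siRNA and scrambled REVERSIR, 134, 115 and 115 with siRNA and TTR REVERSIR, and 129, 110.4 and 129 with PBS. The 3 scrambled REVERSIR libraries had the highest values of all 18, and the other 5 groups overlapped each other. Unlike Trf, the difference of scrambled REVERSIR from PBS did not turn on PBS replicates 1 and 2: its log2 fold change was 0.37 ± 0.084 (SE) with all PBS libraries and 0.30 with PBS replicate 3 only. It was not past the threshold in the smaller fit, however, and leaving out any 1 of most libraries, treated ones included, took it below the threshold in the full fit too. The scrambled REVERSIR libraries were among the 4 shallowest, and the other of these, TTR REVERSIR replicate 2, had a Tfrc level of 126 CPM. The 3 deepest libraries, siRNA and scrambled REVERSIR replicates 1 and 2 and siRNA and TTR REVERSIR replicate 1, had 120.2, 122 and 134 CPM, and the part of depth in Tfrc levels was not tested. In the other 4 comparisons with PBS the log2 fold change was −0.01 to 0.14 after TMM scaling, whereas on library totals alone it was positive in all 5, at 0.30 to 0.65.

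Tfr2 encodes the second transferrin receptor, a hepatocyte sensor of transferrin iron that acts on hepcidin (ENSMUSG00000029716, chr5:138011079-138028709, plus strand). Its CPM was 94.2 to 113 with siRNA, 85.4 to 96.9 with scrambled REVERSIR, 87.3 to 113 with TTR REVERSIR, 96.7 to 109 with siRNA and scrambled REVERSIR, 86.1 to 97.5 with siRNA and TTR REVERSIR, and 89.8 to 91.6 with PBS. The 3 PBS libraries lay within the range of the treated ones. The libraries with siRNA, and those with siRNA and scrambled REVERSIR, were all above the PBS libraries, at log2 fold changes of 0.20 and 0.18 that were not past the threshold. Groups did not overlap for 19.4% and 19.2% of kept genes in these comparisons. On library totals alone the log2 fold change of Tfr2 over PBS was 0.29 to 0.52 in the 5 comparisons.

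Ireb2 encodes iron regulatory protein 2, which is degraded when iron is plentiful (ENSMUSG00000032293, chr9:54711562-54760341, plus strand). Its CPM was 93.0, 72.3 and 82.8 with siRNA, 82.5, 72.8 and 93.3 with scrambled REVERSIR, and 68.9, 107 and 69.3 with TTR REVERSIR. It was 91.1, 73.2 and 80.7 with siRNA and scrambled REVERSIR, 73.3, 93.0 and 86.5 with siRNA and TTR REVERSIR, and 162, 139 and 91.8 with PBS. The 2 highest of 18 were again PBS replicates 1 and 2, and PBS replicate 3 lay inside the treated range. Its log2 fold change over PBS was −0.75 to −0.65, −0.38 to −0.28 on library totals alone, and −0.23 to −0.12 with PBS replicate 3 as the only control.

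Aco1 encodes iron regulatory protein 1, which serves as cytosolic aconitase when it holds an iron-sulfur cluster (ENSMUSG00000028405, chr4:40090114-40146042, plus strand). After TMM scaling it was the steadiest of the 10, with 184 to 219 CPM in treated and 178 to 201 CPM in PBS libraries. Its log2 fold change over PBS was then 0.05 to 0.17, but 0.36 to 0.44 on library totals alone. In TMM-scaled CPM its highest library was 1.23 times its lowest, against 2.35 times for Ireb2. The ratio of Ireb2 to Aco1 counts within a library does not depend on scaling: it was 0.318 to 0.529 in the 15 treated libraries, against 0.854, 0.784 and 0.457 in PBS replicates 1, 2 and 3. The ratio thus separated PBS replicates 1 and 2 from the other 16 libraries, as Ireb2 did on its own.

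Fth1 and Ftl1 encode the heavy and light chains of ferritin, the shell in which cells store iron (ENSMUSG00000024661, chr19:10057193-10059582, plus strand, and ENSMUSG00000050708, chr7:52713314-52715254, minus strand). Fth1 had 1697, 1431 and 1591 CPM with siRNA, 1314, 1311 and 1399 with scrambled REVERSIR, and 1298, 1654 and 1501 with TTR REVERSIR. It had 1682, 1457 and 1358 CPM with siRNA and scrambled REVERSIR, 1342, 1536 and 1665 with siRNA and TTR REVERSIR, and 1993, 2018 and 1575 with PBS. The levels in PBS replicates 1 and 2 were above all others, and that in PBS replicate 3 was within the treated range. The log2 fold change over PBS was −0.47 to −0.24, but its direction depended on scaling, since library totals alone gave −0.18 to 0.09 with 3 of 5 values positive.

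Ftl1 went the other way. It had 1898, 1946 and 1764 CPM with siRNA, 1773, 1493 and 1477 with scrambled REVERSIR, and 2056, 1573 and 1899 with TTR REVERSIR. It had 1745, 1718 and 1799 CPM with siRNA and scrambled REVERSIR, 1885, 1640.1 and 1661 with siRNA and TTR REVERSIR, and 971, 1098 and 1633 with PBS. The 2 lowest of 18 were PBS replicates 1 and 2. Over PBS its log2 fold change was 0.36 to 0.60, 0.58 to 0.86 on library totals alone, and −0.04 to 0.20 with PBS replicate 3 as the only control. Within a library, the ratio of Fth1 to Ftl1 counts was 0.632 to 1.05 in the 15 treated libraries (median 0.878), against 2.05, 1.84 and 0.965 in PBS replicates 1, 2 and 3. The 2 ferritin messages, which carry near-identical hairpins, were thus not in the same proportion in PBS replicates 1 and 2 as elsewhere. Genes named as ferritin copies took few counts in all libraries together: 4 for Ftl2, 16 for Fth-ps2 and 0 for Fthl17. Fth1 had 157024 and Ftl1 had 173152. Copies were sought by symbol only. Gm10116, whose 5' UTR also holds the letters with the stem, passed the low-count filter, and its part in ferritin reads was not tested. The handling of reads that match several copies is not stated, so the Fth1 and Ftl1 levels are uncertain to that extent.

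Hamp encodes hepcidin, the hormone that limits iron export (ENSMUSG00000050440, chr7:31727390-31729036, minus strand). Its CPM was 60.4, 74.6 and 57.3 with siRNA, 52.6, 69.4 and 54.0 with scrambled REVERSIR, and 54.0, 42.3 and 49.97 with TTR REVERSIR. It was 46.7, 49.2 and 50.7 with siRNA and scrambled REVERSIR, 58.8, 44.0 and 53.7 with siRNA and TTR REVERSIR, and 55.5, 59.7 and 51.4 with PBS. The siRNA libraries were all above those with siRNA and scrambled REVERSIR, and the 3 PBS libraries lay within the treated range. Its neighbour Hamp2 had 26 counts in all, against 5512 for Hamp.

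Slc40a1 encodes ferroportin, the only known iron exporter of these cells (ENSMUSG00000025993, chr1:45964915-45982439, minus strand). Its CPM was 109.6, 91.8 and 104 with siRNA, 115, 111 and 139 with scrambled REVERSIR, and 107, 118 and 104 with TTR REVERSIR. It was 105, 110.4 and 113 with siRNA and scrambled REVERSIR, 106, 127 and 114 with siRNA and TTR REVERSIR, and 160.3, 145 and 120.0 with PBS. Both PBS replicates 1 and 2 were above all other libraries. Over PBS, its log2 fold change was −0.48 to −0.24 after TMM scaling, but −0.14 to 0.07 on library totals alone, with 2 of 5 values positive. Hfe, a partner of Tfr2 in iron sensing (ENSMUSG00000006611, chr13:23793903-23802723, minus strand), was the lowest of the 10. It had 13.2 to 22.2 CPM in treated and 14.4 to 22.3 CPM in PBS libraries, resting on 27 to 184 counts per library.

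Comparisons with PBS chose the genes, share the same 3 PBS libraries and are given as a description. Past an adjusted p of 0.05 in an edgeR quasi-likelihood fit were 4 of the 10 genes with siRNA (Trf, Ireb2 and Slc40a1 lower and Ftl1 higher), where 2.62% of all kept genes were past it. With scrambled REVERSIR, Tfrc (higher) and Fth1 (lower) were past it, as were 0.421% of kept genes. With TTR REVERSIR, Trf and Ireb2 (lower) and Ftl1 (higher) were past it, as were 0.699% of kept genes. Trf and Ireb2 (both lower) were past it with siRNA and scrambled REVERSIR and with siRNA and TTR REVERSIR, where 0.61% and 0.789% of kept genes were. The lower direction of Fth1 and Slc40a1 turned in some comparisons on library totals alone, which raised the median of all genes by 0.29 to 0.33 in log2 units over PBS. On library totals alone the members past the threshold were 5 with siRNA, 3 with scrambled REVERSIR, 4 with TTR REVERSIR, 4 with siRNA and scrambled REVERSIR and 3 with siRNA and TTR REVERSIR, all of them higher except Ireb2 with TTR REVERSIR and with siRNA and scrambled REVERSIR. That scaling put 3844, 1580, 2883, 3557 and 4089 of the 11153 kept genes past the threshold in the same order. Groups did not overlap with PBS for 4, 3, 2, 6 and 2 of the 10 genes in the same order of treatments, where this held for 19.4%, 14.5%, 12%, 19.2% and 16% of kept genes. The value nearest the threshold on its inner side was Tfrc with scrambled REVERSIR, at a log2 fold change of 0.37, and on its outer side Slc40a1 with siRNA and scrambled REVERSIR, at −0.38.

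Without PBS replicates 1 and 2, 0 of the 10 genes were past the threshold in edgeR in each of the 5 comparisons, and of all 11153 kept genes 1, 0, 0, 1 and 0 were, so the count of 0 is not particular to the 10. At an unadjusted p under 0.05 there was then 1 member with scrambled REVERSIR and 0 in the other 4 comparisons, beside 4.9%, 4.46%, 4.98%, 4.18% and 4.07% of kept genes in the same order. The lone PBS library is then assumed to vary like the other groups, and the part of fewer control libraries in these counts was not tested. Without PBS replicate 3 instead, 5 members were past the threshold in 4 comparisons and 6 with scrambled REVERSIR, and of all kept genes 1368, 745, 981, 1140 and 1157 were. PBS replicates 1 and 2 were both above the other 16 libraries for 4 of the 10 genes and both below for 1, where this held for 7.07% and 6.3% of kept genes. Trf and Ireb2, among the 4, were chosen for differing from PBS, so this count is partly set by that choice. Among the treated libraries alone, the median of the absolute log2 fold changes of the 10 genes was 0.044 to 0.16 in the 6 comparisons of groups, beside 0.067 to 0.12 for all kept genes.

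**Figure D2:**
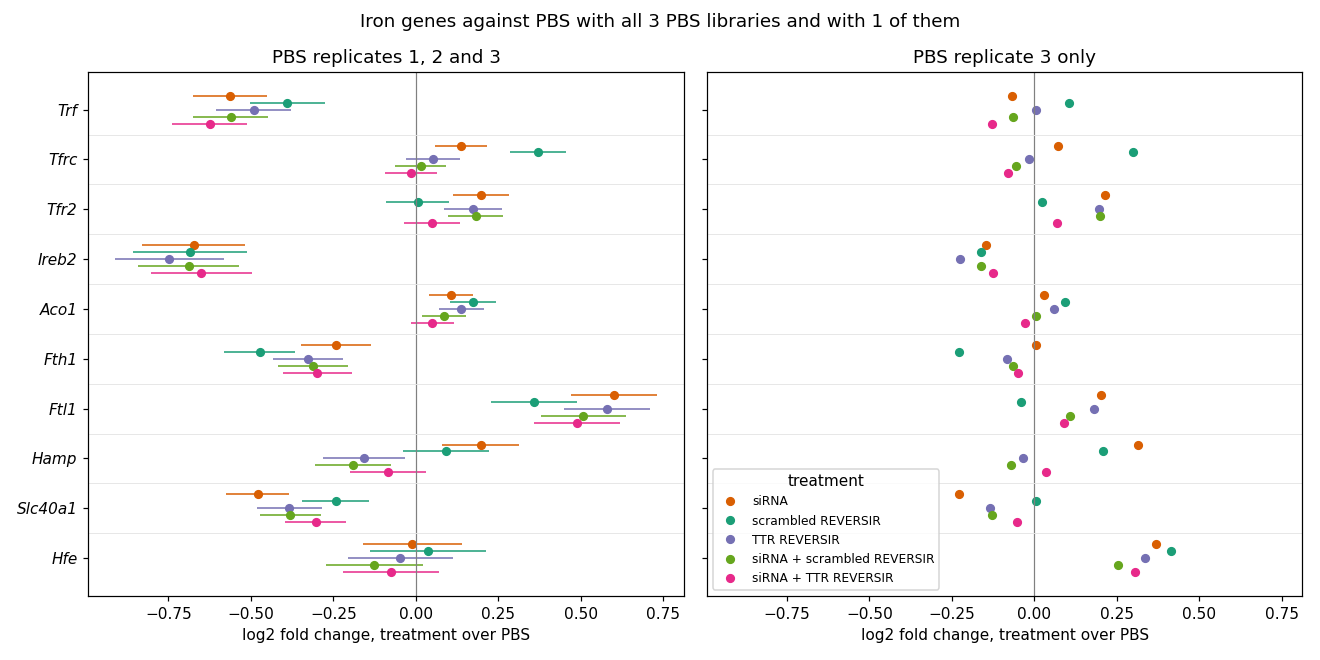
Log2 fold change of each gene for the 5 treatments over PBS after TMM scaling, on the left with all 3 PBS libraries (points, with bars of ± 1 SE) and on the right with PBS replicate 3 as the only control (points). Colours are treatments. On the left Trf and Ireb2 are negative and Ftl1 positive for every treatment. On the right Trf lies between −0.13 and 0.10 and Ftl1 between −0.04 and 0.20, while Tfrc with scrambled REVERSIR stays at 0.30.

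In the authors' deposited table for siRNA, the log2 fold changes were −0.44 for Trf, −0.36 for Ireb2, 0.38 for Ftl1 and −0.39 for Slc40a1, and these 4 members had an adjusted p under 0.05, as did 2.51% of its genes. The authors' deposited table for scrambled REVERSIR gave 0.31 for Tfrc, and there Trf, Tfrc, Ireb2 and Fth1 were under it, as were 1.16% of genes. Under it in the authors' deposited tables were also Trf, Ireb2, Ftl1 and Slc40a1 for TTR REVERSIR, these 4 and Fth1 for siRNA and scrambled REVERSIR, and Trf and Ireb2 for siRNA and TTR REVERSIR, beside 0.928%, 1.38% and 1.1% of genes.

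The share of mitochondrial ribosomal RNA also varied among the treated libraries, and levels of Fth1 and Ireb2 varied with it. The 4 treated libraries with the largest share were siRNA with scrambled REVERSIR replicate 1 (9.56%), TTR REVERSIR replicate 2 (9.13%), siRNA replicate 1 (8.39%) and siRNA with TTR REVERSIR replicate 3 (6.69%). Their Fth1 levels of 1682, 1654, 1697 and 1665 CPM were the 4 highest of the 15 treated libraries. Their Ireb2 levels were 91.1, 107, 93.0 and 86.5 CPM, beside a median of 82.5 CPM over the 15. TTR REVERSIR replicate 1, with the smallest share of 1.69%, had the lowest level of both genes, at 1298 and 68.9 CPM, and the highest of Ftl1, at 2056 CPM. Trf showed no such order, with 759.9, 836, 757 and 728 CPM in the same 4 libraries and 833 CPM in TTR REVERSIR replicate 1. The part of this share in the levels of the 10 genes was not tested.

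**Figure D3:**
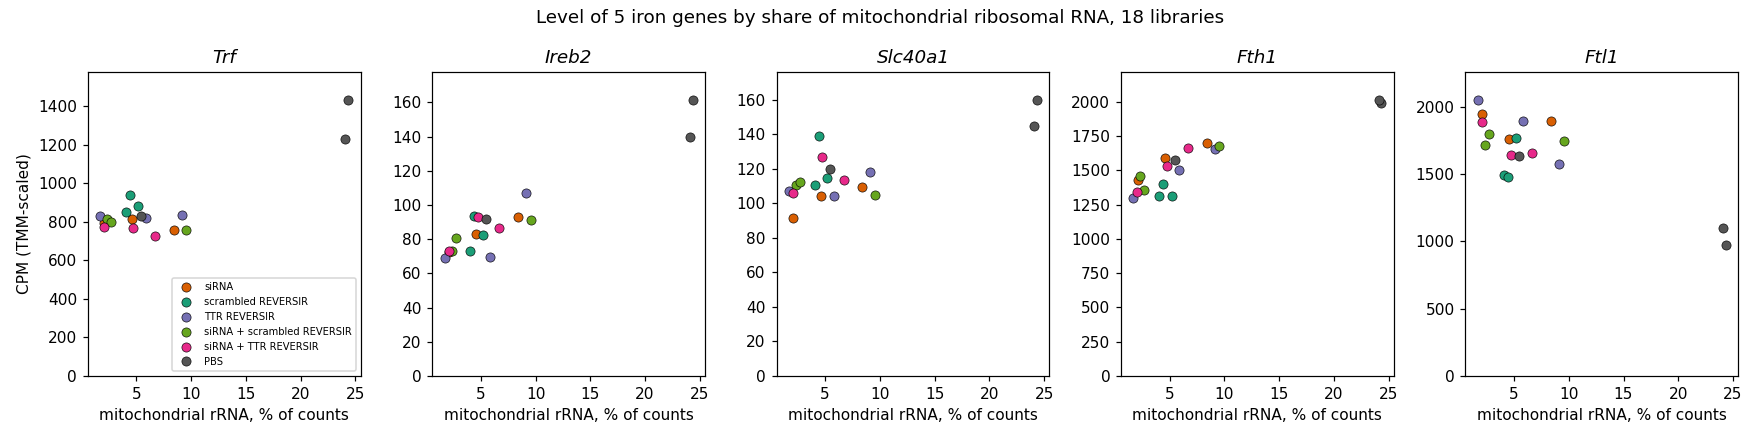
CPM of 5 genes (vertical axis, from 0) against the share of counts in mitochondrial ribosomal RNA (horizontal axis, percent), with 1 point per library coloured by treatment. The 2 points at 24.3% and 24.1% are PBS replicates 1 and 2. Fth1 climbs with the share among the treated libraries too, while Trf does not.

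The 7 comparisons without PBS libraries ask whether a REVERSIR added to siRNA, the REVERSIR sequence, or siRNA in the presence of a REVERSIR changed the 10 genes. They were not used to choose them, although their libraries had entered the comparisons with PBS. In edgeR's quasi-likelihood test with Benjamini-Hochberg adjustment over all kept genes, 0 of the 10 genes passed in any of the 7. Of all kept genes, 0.00897% passed for siRNA and TTR REVERSIR against siRNA, 0% for siRNA and scrambled REVERSIR against siRNA, and 0.00897% for siRNA and TTR REVERSIR against siRNA and scrambled REVERSIR. The share was 0.0179% for TTR REVERSIR against scrambled REVERSIR, 0.0179% for siRNA and scrambled REVERSIR against scrambled REVERSIR, 0% for siRNA and TTR REVERSIR against TTR REVERSIR, and 0.00897% for the interaction of siRNA with REVERSIR sequence. At an unadjusted p under 0.05 there were 1, 1, 0, 1, 2, 0 and 2 of the 10 in this order, beside 5.98%, 3.72%, 2.17%, 7.33%, 6.22%, 4.44% and 5.39% of kept genes. These counts depended on the fit, whose spread was shared with the PBS libraries. In edgeR fits of only the groups compared they were 2, 1, 0, 2, 6, 0 and 3 in the same order. The share of all kept genes at that unadjusted p is not given for those fits, so these counts, the 6 included, cannot be called unusual. In those fits 0 of the 10 passed after adjustment. DESeq2 also called 0 of the 10 in each. Groups did not overlap for 0, 2, 0, 2, 4 and 1 of the 10 in the first 6, where this held for 13.3%, 12.4%, 9.32%, 10.8%, 14.5% and 10% of kept genes.

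Tfrc had the smallest p of the members in these comparisons. It averaged 124 ± 5.52 CPM with siRNA and scrambled REVERSIR and 159 ± 9.03 CPM with scrambled REVERSIR (SD, n = 3 each), and the groups did not overlap, as was so for 14.5% of kept genes. The log2 fold change was −0.36 ± 0.082 (SE), with an edgeR adjusted p of 0.319 (95% interval −0.52 to −0.19). With no filter on low counts the edgeR adjusted p was 0.0207, in a range of 0.0207 to 1.00 over 25 alternatives. TTR REVERSIR against scrambled REVERSIR gave 127 ± 7.87 and 159 ± 9.03 CPM, a log2 fold change of −0.32 ± 0.085 (SE) and an edgeR adjusted p of 0.438, again without overlap (10.8% of kept genes). The high values of the scrambled REVERSIR libraries that enter both comparisons are those that had set Tfrc apart from PBS.

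Hamp averaged 48.9 ± 2.04 CPM with siRNA and scrambled REVERSIR and 64.1 ± 9.21 CPM with siRNA (SD, n = 3 each), a log2 fold change of −0.39 ± 0.11 (SE). The edgeR adjusted p was 1.00, although the groups did not overlap, as was so for 12.4% of kept genes. With no filter on low counts it was 0.0217, in a range of 0.0217 to 1.00 over 25 alternatives. Against siRNA alone, siRNA and TTR REVERSIR gave 52.1 ± 7.51 and 64.1 ± 9.21 CPM, a log2 fold change of −0.28 ± 0.11 (SE) and an edgeR adjusted p of 0.779. It was −0.16 without siRNA replicate 2 and −0.18 without siRNA and TTR REVERSIR replicate 2, and its edgeR adjusted p was 0.606 to 1.00 over 25 alternatives. Slc40a1, the ferroportin message, had a log2 fold change of 0.18 for siRNA and TTR REVERSIR against siRNA. Its 95% interval was −0.02 to 0.37 and its edgeR adjusted p 0.817. Hepcidin acts on ferroportin protein, which was not measured.

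For Trf and Ireb2, which had both differed from PBS, the log2 fold change in the 6 comparisons of treated groups was −0.17 to 0.00 for Trf and −0.06 to 0.10 for Ireb2. That of Ftl1 was −0.11 to 0.22. Ireb2 and Ftl1 groups overlapped in all 6 comparisons, and Trf groups did not overlap in 3 of them. These were TTR REVERSIR against scrambled REVERSIR, and siRNA with scrambled or TTR REVERSIR against the same REVERSIR alone. Groups did not overlap there for 10.8%, 14.5% and 10% of kept genes. The 95% interval of Trf for siRNA and TTR REVERSIR against siRNA and scrambled REVERSIR was −0.30 to 0.17. That of Ireb2 was −0.28 to 0.35. Both intervals rest on the fit whose spread was shared with the PBS libraries. The SD of Trf was 308 CPM with PBS, 25.2 CPM with siRNA and TTR REVERSIR, and 27.5 CPM with siRNA and scrambled REVERSIR. That of Ireb2 was 35.7, 9.99 and 9.02 CPM in the same order. The smallest difference detectable between these treated groups was not tested. The effect of siRNA with TTR REVERSIR less that with scrambled REVERSIR was 0.29 for Tfrc (95% interval 0.06 to 0.53, edgeR adjusted p = 0.889) and −0.30 for Tfr2 (−0.56 to −0.04, edgeR adjusted p = 0.889). It was 0.35 for Hamp (−0.0035 to 0.71, edgeR adjusted p = 0.929).

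**Figure D4:**
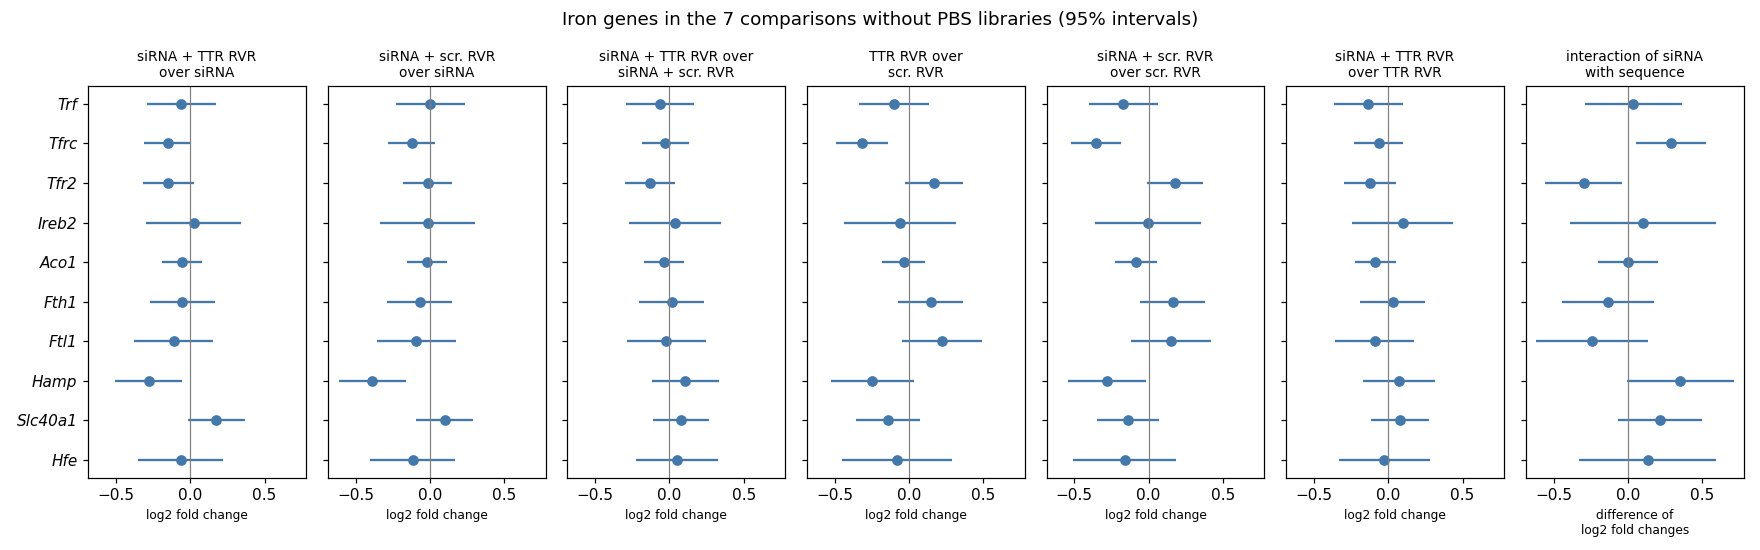
Log2 fold change of the 10 genes with its 95% interval in the 6 comparisons of treated groups, and the difference of log2 fold changes for the interaction in the last panel (RVR, REVERSIR; scr., scrambled). Trf and Ireb2 lie within 0.2 of 0 in the 6 comparisons, and Tfrc is furthest from 0 where scrambled REVERSIR is the comparator, at −0.32 and −0.36.

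The genes most like Trf over the 18 libraries, among 4807 whose log2 CPM averaged 5 or more, were B2m, Rhoa and Gm13456, with Pearson r of 0.93, 0.93 and 0.92. Without PBS these values were 0.02, 0.25 and 0.36 over 15 libraries. Those most like Tfrc were Nt5e, Serpina7 and Stk38l, at 0.89, 0.87 and 0.83, and these values were 0.88, 0.87 and 0.81 without PBS. Those most like Ireb2 were Pabpc1, Pitpnb and Gng12, at 0.93, 0.93 and 0.92, or 0.80, 0.80 and 0.81 without PBS. These are descriptions of levels that share the same libraries and depth.

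In wider lists of the iron system, edgeR called 0 genes in all 12 comparisons among the kept members of 6 lists: iron uptake and endosomal release (10 of 13 kept), hepcidin signalling (22 of 26), other messages with iron-responsive elements (7 of 8), control of the regulatory proteins (14 of 14), plasma carriers of copper, heme and hemoglobin (4 of 7), and mitochondrial iron and iron-sulfur assembly (25 of 25). At an unadjusted p under 0.05 there were 22, 21, 11, 11 and 13 of these 81 distinct genes in the 5 comparisons with PBS and 1 to 7 in the other 7. The shares against PBS were 27.2%, 25.9%, 13.6%, 13.6% and 16% of the 81, beside 20.1%, 14.7%, 16.4%, 17.7% and 17.7% of all kept genes. DESeq2 called 1, 1, 1, 2 and 3 against PBS and 0 in the others. Of 10 genes of heme breakdown and export, Hmox1 and Flvcr1 passed in edgeR as lower with siRNA than with PBS, and Hmox1 with scrambled REVERSIR, and 0 of them as higher. Hmox1, the heme-degrading oxygenase, had 222, 201 and 214 CPM with siRNA, 206, 169 and 196 CPM with scrambled REVERSIR, and 282, 303 and 219.6 CPM with PBS. Flvcr1, a heme exporter, had 14.4, 14.04 and 16.1 CPM with siRNA and 27.4, 23.4 and 16.4 CPM with PBS. In both genes, PBS replicates 1 and 2 were above the treated libraries given and PBS replicate 3 was nearer to them.

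Of 9 heme synthesis enzymes, Urod alone passed, as higher with siRNA (39.3, 41.4 and 35.9 CPM) and with TTR REVERSIR (44.1, 34.1 and 41.3 CPM) than with PBS (22.4, 20.7 and 32.5 CPM). Of 8 kept genes for ferritin loading and turnover, Pcbp2, an iron chaperone that delivers to ferritin, alone passed. It was lower with TTR REVERSIR (45.2, 90.05 and 48.8 CPM) and with siRNA and scrambled REVERSIR (67.6, 49.6 and 59.4 CPM) than with PBS (116, 107 and 82.2 CPM). With PBS replicate 3 as the only control, 0 of these 7 calls remained past the threshold in edgeR. Their log2 fold changes were then −0.04 and −0.21 for Hmox1 with siRNA and with scrambled REVERSIR, −0.12 for Flvcr1, 0.25 and 0.34 for Urod with siRNA and with TTR REVERSIR, and −0.53 and −0.47 for Pcbp2 with TTR REVERSIR and with siRNA and scrambled REVERSIR.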

How the data were processed

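Raw read counts per Ensembl gene were deposited by the authors, 1 table per library, with no pooling of replicates. The submitters' processing notes name STAR, DESeq2 and the build NCBIM37. No source used here gives versions, the counting tool, its strand setting or the treatment of multiply matching reads. The authors also deposited DESeq2 tables of each treatment against PBS, holding for each gene a mean signal, a log2 fold change with standard error, the Wald score and the raw and adjusted p-value.

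Libraries were grouped and numbered by title, also where a file name gave another number (siRNA and scrambled REVERSIR replicate 2). Genes were kept by filterByExpr of edgeR 4.0.16 (R 4.3.3), and all 18 libraries were fitted in 1 quasi-likelihood model after TMM scaling, with 12 residual degrees of freedom and Benjamini-Hochberg adjustment over 11153 genes at a threshold of 0.05. Standard errors came from the F statistic. The fit was tested on simulated data. The 12 comparisons were 5 against PBS, 6 between treated groups, and 1 interaction. DESeq2 1.42.0, other scalings, no filter, a replicate block, fewer groups and left-out libraries were alternatives. No replicate pair agreed within sampling noise. Deviations of same-numbered libraries from their group means correlated at −0.64 to 0.79 (median −0.05, 45 pairs). Those of differently numbered libraries correlated at −0.83 to 0.76 (median 0.03, 90 pairs). Such wide ranges could hide a pairing, so none was used in the main fit and none is excluded.

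The members, the 15 gene lists and the alternatives were chosen with earlier results of these data known. The text names all 10 members, up to 3 list genes past the threshold per comparison with the smallest p, and the 3 genes most like Trf, Tfrc and Ireb2. Hairpins were sought in GENCODE transcripts of NCBIM37. Log2 CPM used a prior count of 2.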

Additional observations from a re-analysis of the deposited data

Results flagged for a closer look

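In 4 genes every library with siRNA and a REVERSIR lay on one side of the mean of that REVERSIR alone, and every library with siRNA alone lay on the other side of the PBS mean. The differences between these effects were not tested. The share of all kept genes that meet this rule was not counted, so the 4 genes cannot be called unusual. The log2 effect of siRNA on Tfrc was −0.36 over scrambled REVERSIR and 0.14 over PBS, so the effect without REVERSIR less that with it was 0.49. For Fth1 it was 0.16 over scrambled REVERSIR and −0.24 over PBS, a difference of −0.40. For Hamp it was −0.28 over scrambled REVERSIR and 0.20 over PBS, a difference of 0.48. For Tfr2 it was −0.12 over TTR REVERSIR and 0.20 over PBS, a difference of 0.32. Set against PBS replicate 3 alone, the effect over PBS was 0.07 for Tfrc and 0.00 for Fth1, nearer to 0 than with all PBS libraries, and 0.31 for Hamp and 0.21 for Tfr2, no nearer to 0.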

How the results depend on the processing

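In the 7 comparisons without PBS, 0 members passed as reported and in every alternative but 1, including each left-out library (0 to 0). With no filter on low counts, Hamp passed for siRNA and scrambled REVERSIR against siRNA and Tfrc for siRNA and scrambled REVERSIR against scrambled REVERSIR (1 each). The number of all genes that passed there is not given, so these calls cannot be read as particular to the members. Against PBS the counts of members past the threshold, 4 with siRNA, 2 with scrambled REVERSIR, 3 with TTR REVERSIR, 2 with siRNA and scrambled REVERSIR and 2 with siRNA and TTR REVERSIR, moved with most choices, and the cause was not tested. Fits of only the groups compared gave 5 to 7 members at an unadjusted p under 0.05. The share of all genes at that p is not given, so these cannot be called unusual. The counts past the threshold were 0 in all 5 of those fits, where 1, 7, 0, 7 and 1 of 11153 genes passed. With no filter they were 5 in the last 4 comparisons, where 424, 498, 564 and 585 of 20065 genes passed (677 with siRNA), DESeq2 gave 5 with TTR REVERSIR and 4 with siRNA and scrambled REVERSIR, library totals alone gave 4 there, and DESeq2 size factors gave 1 with scrambled REVERSIR, where 46 of 11153 genes passed. With the replicate number as a block they were 1 with scrambled REVERSIR and 1 with siRNA and TTR REVERSIR. Leaving out 1 library gave 0 to 5 with siRNA, 0 to 6 with scrambled REVERSIR, and 0 to 5 in each of the other 3. PBS replicate 1 or 2 left out gave 0 in all 5, where 0 to 5 of all genes passed. With siRNA, leaving out siRNA replicate 2 gave 0 and replicate 1 gave 2. With scrambled REVERSIR, every library gave 0 when left out except PBS replicate 3 (6), siRNA replicate 1 and TTR REVERSIR replicate 1 (1 each), TTR REVERSIR replicate 2 (3) and siRNA and TTR REVERSIR replicate 1 (2). With TTR REVERSIR, its replicates 1 and 3, siRNA and scrambled REVERSIR replicate 3 and siRNA and TTR REVERSIR replicate 2 gave 0. There siRNA replicate 1, scrambled REVERSIR replicate 2 and siRNA and scrambled REVERSIR replicate 2 gave 1, and TTR REVERSIR replicate 2 and PBS replicate 3 gave 5. With siRNA and scrambled REVERSIR, its own 3 libraries gave 0, TTR REVERSIR replicate 2 and siRNA and TTR REVERSIR replicate 1 gave 4, and PBS replicate 3 gave 5. With siRNA and TTR REVERSIR, its replicates 1 and 3 gave 0, PBS replicate 3 gave 5, TTR REVERSIR replicate 2 gave 3, siRNA replicate 2 and TTR REVERSIR replicate 1 gave 2, and the others gave 1. Where no number of all genes stands beside a count of members, that count cannot be called unusual. Of 3000 single-gene values, 116 changed sign, and 1 called value reversed: Trf with TTR REVERSIR was 0.0046 without PBS replicates 1 and 2. Hfe rests on as few as 27 counts in a library, and the smallest difference detectable in it was not tested.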
